A study of Mus musculus with 6 samples.

Results

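The genes described here encode the subunits of AP-1, a clathrin adaptor complex, in the pancreas of young mice that overexpress Prox1. The members were all probe sets with a single gene symbol among Ap1s3, Ap1s1, Ap1s2, Ap1g1, Ap1g2, Ap1m1, Ap1m2 and Ap1b1 in the array annotation. They came to 18 probe sets of 34945 with a single symbol, and to 8 genes of 18193. The complex was chosen by the measured rise of Ap1s3 in Prox1-OE against control pancreas in an earlier analysis of the same arrays. The difference of Ap1s3 is therefore given as a description with no test, and the question asked is whether the other subunits moved with it or in the opposite direction.

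Whole pancreas was taken at postnatal day 15 from mice of NMRI background, and 1 Affymetrix 3' expression array was run per sample. The 3 Prox1-OE samples carried Jojo-Prox1 together with Ngn3-cre, and the 3 control samples carried Ngn3-cre without Jojo-Prox1. The genotypes thus differed by Jojo-Prox1, a transgene named for the homeobox transcription factor Prox1, and the cre was shared by all 6 samples. Ngn3-cre acts in the progenitors of endocrine cells, whereas most of the pancreas is exocrine. Each value is thus an average over the targeted islet lineage and the acinar, ductal, vascular and immune cells around it. In such bulk samples, fewer cells of a type and less RNA per cell cannot be told apart. All values are log2 probe set summaries as deposited, and a difference is Prox1-OE minus control on that scale. The labels name no animals or litters behind the replicates, so the p-values speak for the variation among these samples, which may be technical.

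AP-1 is built from a gamma chain, a beta chain, a medium mu chain and a small sigma chain, and the sigma and gamma chains together read dileucine sorting signals of cargo proteins. The GTPase Arf1 recruits it to the trans-Golgi network and endosomes, where it selects cargo and gathers clathrin into a coat. In endocrine cells AP-1 coats also form on immature secretory granules and remove proteins such as furin and mannose 6-phosphate receptors as the granule matures. The sigma chain comes in isoforms, encoded by Ap1s1, Ap1s2 and Ap1s3, which occupy the same place in the complex, and so do the gamma chains Ap1g1 and Ap1g2 and the mu chains Ap1m1 and Ap1m2.

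The sequences upstream of the sigma chain genes are printed because these paralogs take the same place in the complex but are read from separate promoters. Each line holds the 250 bases before the RefSeq transcription start in the GRCm38.p6 build, written 5′ to 3′ on the strand of the gene, with CG dinucleotides in capitals. The Ap1s3 segment is chr1:79671973-79672222 on the minus strand, that of Ap1s1 is chr5:137046109-137046358 on the minus strand and that of Ap1s2 is chrX:163908767-163909016 on the plus strand.
Ap1s3: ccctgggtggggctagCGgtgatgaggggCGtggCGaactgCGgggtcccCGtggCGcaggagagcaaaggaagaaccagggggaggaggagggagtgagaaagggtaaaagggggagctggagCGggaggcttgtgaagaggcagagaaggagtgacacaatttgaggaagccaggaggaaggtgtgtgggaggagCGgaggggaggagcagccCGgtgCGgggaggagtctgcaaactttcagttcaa
Ap1s1: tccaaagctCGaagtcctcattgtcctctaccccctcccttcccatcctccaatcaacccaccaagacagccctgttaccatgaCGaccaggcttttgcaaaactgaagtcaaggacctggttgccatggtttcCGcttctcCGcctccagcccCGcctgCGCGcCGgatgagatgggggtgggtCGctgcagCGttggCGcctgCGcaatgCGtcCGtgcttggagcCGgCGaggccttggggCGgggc
Ap1s2: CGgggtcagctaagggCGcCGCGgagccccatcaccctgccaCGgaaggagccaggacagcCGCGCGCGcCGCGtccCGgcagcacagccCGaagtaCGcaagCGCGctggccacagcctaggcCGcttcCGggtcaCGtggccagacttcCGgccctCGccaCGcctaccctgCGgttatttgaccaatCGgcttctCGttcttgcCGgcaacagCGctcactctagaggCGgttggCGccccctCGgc
The Ap1s3 segment held 10 CG dinucleotides, that of Ap1s1 held 17 and that of Ap1s2 held 30, where the median over 32851 segments of the same length in the table was 6. Both strands were searched for CANNTG (the E-box of basic helix-loop-helix factors), for the CCAAT box, for the core promoter element TATAAA, for the Sp1 element GGGCGG and for TGACGTCA (a cyclic AMP response element). None of them was found in the Ap1s3 segment. Ap1s2 held 1 CANNTG and 1 CCAAT, and Ap1s1 held 1 CCAAT and 1 GGGCGG. Of all segments, 66.2% held CANNTG, 33.8% CCAAT, 12.4% TATAAA, 32.7% GGGCGG and 1.55% TGACGTCA. A match or its absence describes these letters in this window and nothing about any factor. Promoters were in the table for 7 of the 8 genes, Ap1m1 being the other one.

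Across the arrays, Pearson correlations over all genes ran from 0.987 to 0.994. The brightest probe set of Prox1 itself read 5.30, 4.98 and 5.31 on the Prox1-OE arrays, against 5.61, 4.90 and 4.90 on the control arrays (limma adjusted p = 0.971). That probe set thus showed no rise of Prox1 to set beside the labels, and any other probe set of Prox1 is not given here. The brightest probe set may lie outside the transcript of the transgene, in which case it checks nothing. Acinar markers, which should dominate whole pancreas, had mean levels of 13.4 to 13.5 on the Prox1-OE arrays and 13.5 to 13.6 on the control arrays. The 8 measured acinar markers all lay above the median of the table (4.40). Of these, 0 of 8 had a positive difference, where 46.2% of all genes did, and their mean difference was -0.06. By limma 0 of them passed at an adjusted p of 0.05, where 0.0275% of all genes did.

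Ap1s3, the sigma chain whose human counterpart carries variants linked to pustular psoriasis, was measured by a single probe set. It read 6.72, 6.67 and 6.78 on Prox1-OE replicates 1, 2 and 3, against 5.53, 5.82 and 5.84 on control replicates 1, 2 and 3. The Prox1-OE arrays lay close together and all above the control arrays, of which replicate 1 was the lowest. The means were 6.73 ± 0.05 in Prox1-OE and 5.73 ± 0.17 in control (SD, n = 3 each). The difference was 0.998 ± 0.107 (SE), a 2.0-fold higher level, with a 95% interval of 0.75 to 1.24. These are the values that chose the complex, and a second probe set of Ap1s3 was not in the table to set beside them.

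**Figure D1:**
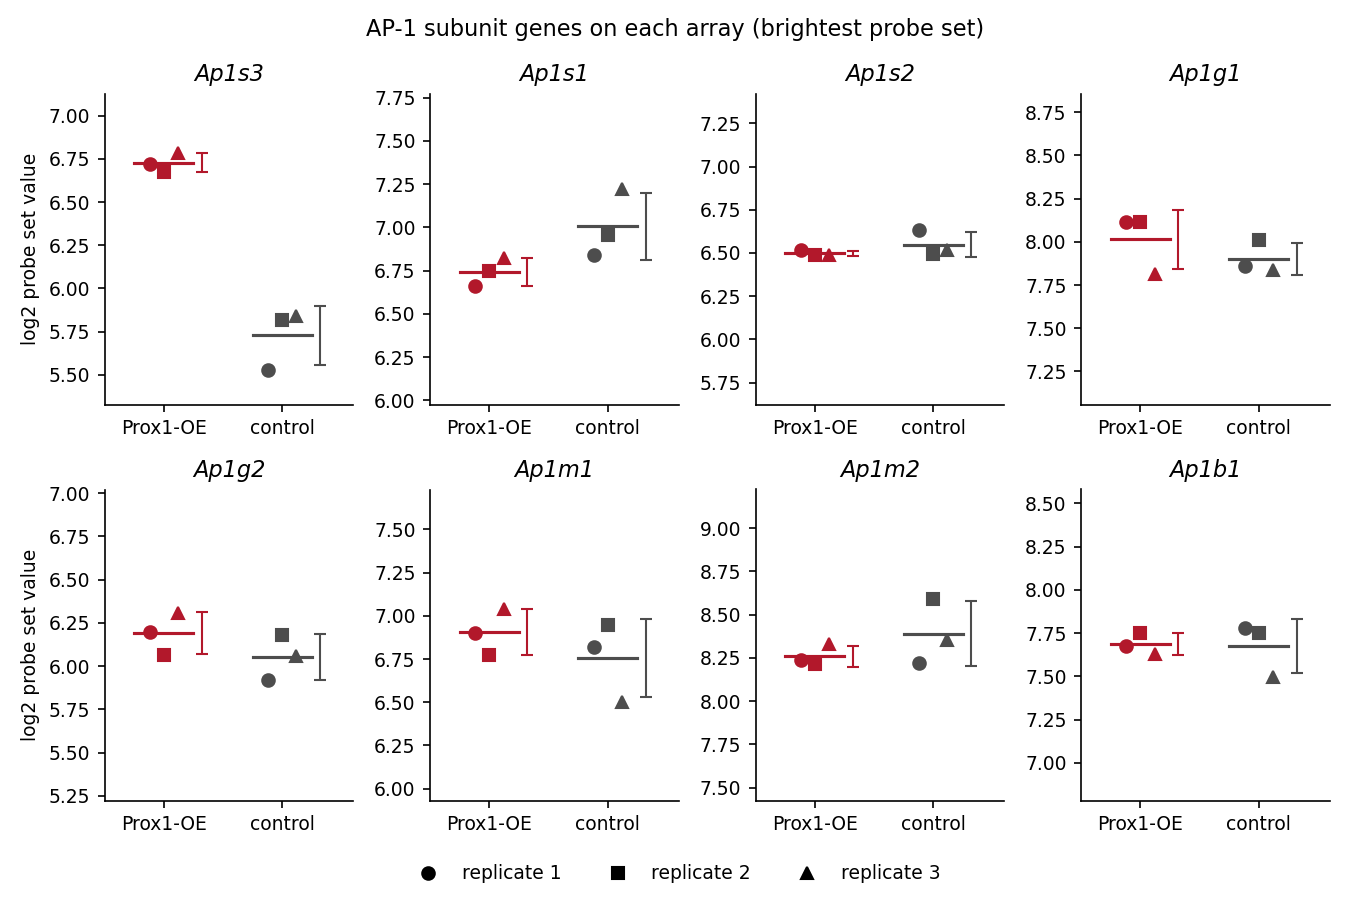
Log2 value of the brightest probe set of each AP-1 gene on the 3 Prox1-OE arrays (red) and the 3 control arrays (grey), with the group mean as a line, its SD as a bar and all panels spanning the same log2 range. Ap1s3 lies between 6.67 and 6.78 in Prox1-OE and between 5.53 and 5.84 in control, Ap1s1 is lower without overlap, and the groups of the other 6 genes overlap.

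The other subunits were then tested. None of the 7 passed limma's test at an adjusted p of 0.05 over all genes, where 0.0275% of 18193 genes did, and 0 of the 7 had an unadjusted p under 0.05, where 6.65% of all genes did (2.94% higher and 3.70% lower). Their differences ran from -0.26 (Ap1s1) to 0.15 (Ap1m1), 4 positive and 3 negative, with a median of 0.01 beside -0.01 over all genes. The median size of a difference, whatever its sign, was 0.13 for the 7 and 0.09 for all genes. The upper end of the 95% interval was at most 0.45 among the 7. Relative to their means in control, Ap1s3 exceeded the mean of the other 7 by 0.998, 0.97 and 1.04 on the Prox1-OE arrays. On the control arrays it stood at -0.16, 0.0008 and 0.16 relative to them. These distances rest on the Ap1s3 values that chose the complex and are a description.

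Among the sigma chains, Ap1s1 had the most negative difference of the complex. Ap1s1 encodes the ubiquitous sigma chain. It read 6.66, 6.75 and 6.82 in Prox1-OE, against 6.84, 6.96 and 7.22 in control. The groups did not overlap, but the highest Prox1-OE array lay close to the lowest control array, and control replicate 3 stood above the rest. The difference was -0.26 ± 0.12 (SE, 95% interval -0.53 to 0.003, limma adjusted p = 0.753), or 83.4% of the control level. It was -0.16 without control replicate 3. Ap1s1 was the only one of the 7 whose groups did not overlap, where 12.1% of all genes did not (5.05% higher and 7.02% lower).

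Ap1s2, an X-linked sigma chain gene, was measured by 6 probe sets that did not move together. Its brightest probe set read 6.52, 6.49 and 6.49 in Prox1-OE, against 6.63, 6.50 and 6.52 in control. The values overlapped and differed by -0.05 ± 0.08 (SE, 95% interval -0.24 to 0.14, limma adjusted p = 0.932). The next brightest, 1452657_at, read 6.40, 5.95 and 6.10 in Prox1-OE, against 5.85, 5.84 and 5.93 in control. Here the Prox1-OE arrays were all higher, Prox1-OE replicate 1 most of all, and the difference was 0.27 ± 0.12 (SE, limma adjusted p = 0.809 over all probe sets). The third probe set, 1447903_x_at, read 5.93, 5.41 and 5.47 in Prox1-OE, against 5.74, 5.33 and 5.36 in control, with replicate 1 the highest array of each group. The remaining 3 lay below the median of the table, where probe sets are near background, and differed by -0.11, 0.04 and -0.02. Taken as the mean of its 6 probe sets, Ap1s2 differed by 0.04 in place of -0.05. The sign of its difference thus depended on the probe set.

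The gamma chains are large subunits of AP-1 that bind Arf1 and accessory proteins. Ap1g1, which encodes the widespread gamma chain, read 8.11, 8.11 and 7.81 in Prox1-OE, against 7.86, 8.01 and 7.84 in control. Prox1-OE replicate 3 was the lowest array of all, so the groups overlapped, and the difference was 0.11 ± 0.11 (SE, 95% interval -0.14 to 0.37, limma adjusted p = 0.865). Over the 5 probe sets of Ap1g1 the differences ran from -0.02 to 0.11, and 2 of these probe sets were below the median of the table. The paralog Ap1g2, whose product is less studied, read 6.20, 6.07 and 6.31 in Prox1-OE, against 5.92, 6.18 and 6.06 in control. These values were interleaved, with a difference of 0.14 ± 0.11 (SE, 95% interval -0.11 to 0.38, limma adjusted p = 0.827).

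The mu chains read tyrosine-based sorting signals in the tails of cargo proteins. Ap1m1, which encodes the widespread mu1A chain, read 6.90, 6.78 and 7.04 in Prox1-OE, against 6.82, 6.95 and 6.50 in control. The low value of control replicate 3 carried much of the difference of 0.15 ± 0.13 (SE, 95% interval -0.15 to 0.45, limma adjusted p = 0.851), which was 0.02 without that array. The other probe set of Ap1m1, 1416307_at, differed by 0.03, with 6.75, 6.63 and 6.78 in Prox1-OE and 6.77, 6.66 and 6.66 in control. Ap1m2, which encodes the mu1B chain restricted to epithelia and sorts cargo to the basolateral membrane, read 8.24, 8.21 and 8.33 in Prox1-OE, against 8.22, 8.59 and 8.35 in control. The groups overlapped and differed by -0.13 ± 0.11 (SE, 95% interval -0.39 to 0.13, limma adjusted p = 0.848). Beside it, the 10 general epithelial markers had mean levels of 9.03 to 9.15 in Prox1-OE and 9.10 to 9.16 in control, all of them above the median of the table, and 3 of 10 had a positive difference. The part of these markers in the value of Ap1m2 was not tested.

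Ap1b1 encodes the beta chain, which binds clathrin and can also enter the plasma membrane adaptor AP-2. It read 7.68, 7.75 and 7.63 in Prox1-OE, against 7.78, 7.75 and 7.50 in control. The difference was 0.01 ± 0.10 (SE, 95% interval -0.23 to 0.25, limma adjusted p = 0.991). With the Prox1-OE values inside the range of the control values, Ap1b1 had the smallest difference of the 8 genes.

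The fit was repeated over all probe sets of the complex. Of the 17 probe sets of the other subunits, 11 had a positive and 6 a negative difference. In the limma fit over all 45037 probe sets that were not controls, 0 of the 17 passed and 0 had an unadjusted p under 0.05, and the smallest adjusted p was 0.809. Of all probe sets, 0.0111% passed. The groups did not overlap for 1 of the 17 on the higher side (4.60% of all probe sets) and 1 on the lower side (6.80%). No interval of the 17 reached above 0.55. The number of arrays limits these intervals, and differences of the size seen in Ap1s1 or in the probe set 1452657_at of Ap1s2 were not resolved.

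**Figure D2:**
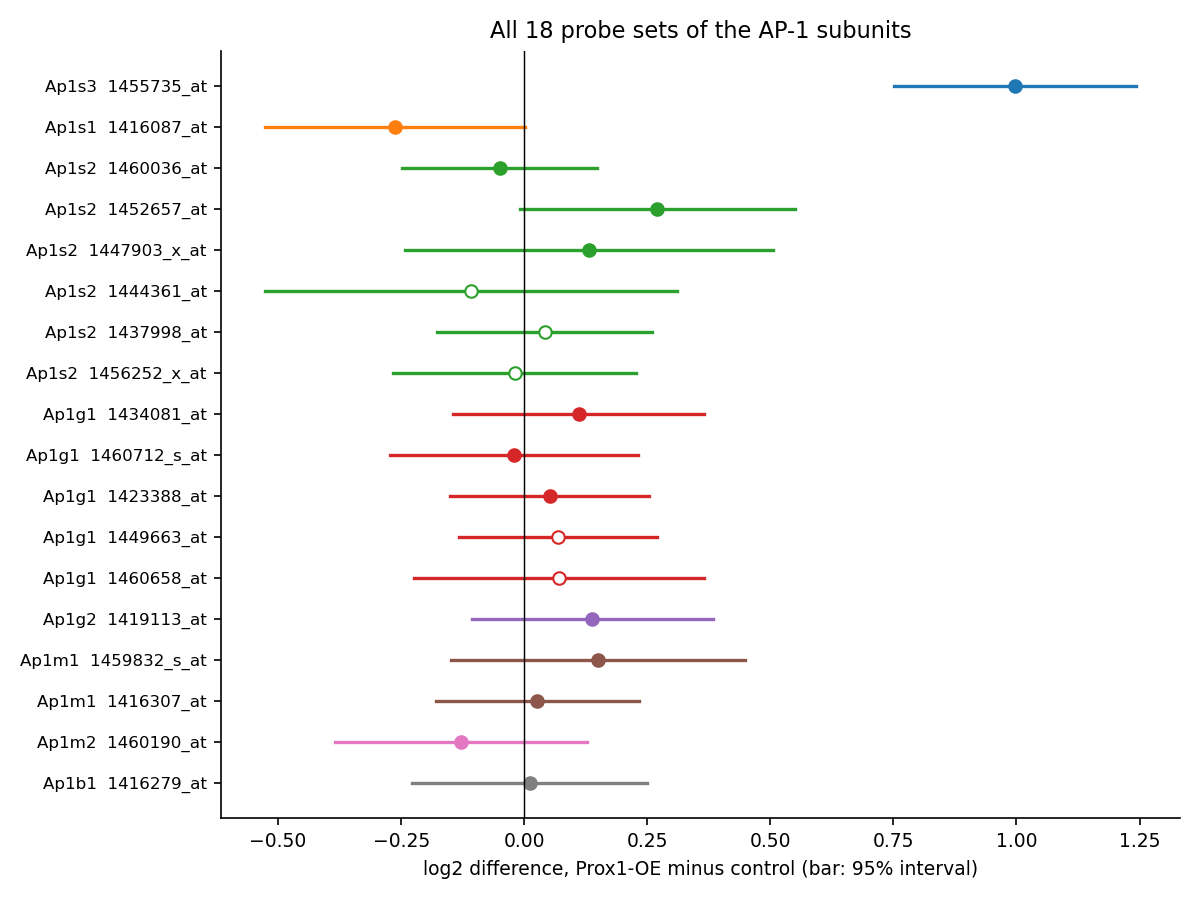
Log2 difference, Prox1-OE minus control, of each of the 18 probe sets with its 95% interval from limma, coloured by gene and ordered by brightness within a gene, with open circles for the 5 probe sets below the median of the table. The 17 intervals of the other subunits end at or below 0.55, and that of Ap1s3, whose values chose the complex, is drawn as a description.

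The same comparison was made for genes that work with AP-1 or in parallel to it. Values of 65 such genes were analysed. By limma 0 of the 65 rose or fell over all genes (0.0220% of all genes rose and 0.00550% fell), and 2, both higher, had an unadjusted p under 0.05, a share of 3.08% where all genes gave 6.65%. Their median difference was -0.02, beside -0.01 over all genes, with 29 positive and 36 negative. The groups did not overlap for 9.23% of the 65, where 12.1% of all genes did not.

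Of these genes, Ap2b1 differed most. It encodes the beta chain of AP-2, the adaptor of endocytosis at the plasma membrane, and is the closest relative of Ap1b1. It read 7.84, 7.84 and 7.72 in Prox1-OE, against 7.37, 7.65 and 7.21 in control. All Prox1-OE arrays were above all control arrays, with a difference of 0.39 ± 0.12 (SE, limma adjusted p = 0.690). The other AP-2 genes measured differed less, with Ap2a1 at -0.07, Ap2m1 at -0.03 and Ap2s1 at -0.02, and the list of 5 had a median of -0.02.

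The AP-3 subunits, which sort cargo to lysosome-related organelles, had a median of -0.03 over 7 genes, 4 of them negative. Ap3d1, the delta chain, differed by -0.16 ± 0.12, Ap3b2, a neuronal beta chain, by -0.15 ± 0.10, Ap3m1 by -0.09 and Ap3s2 by 0.06. In the 8 genes of AP-4 and AP-5, adaptors that do not use clathrin, Ap5m1 read 6.81, 6.80 and 6.87 in Prox1-OE, against 6.36, 6.71 and 6.45 in control. The groups did not overlap, and the difference was 0.32 ± 0.11 (SE, limma adjusted p = 0.690). Ap4e1 differed by 0.17 ± 0.09, Ap5z1 by -0.23 ± 0.14 and Ap5b1 by -0.09 ± 0.08, and the median of the list was -0.04. The groups of Ap4e1, on the higher side, and of Ap5b1, on the lower side, did not overlap either. That made 3 of the 8 genes, or 37.5%, where 12.1% of all genes did not overlap.

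The clathrin chains and the genes that strip the coat, taken as 1 list, had a median difference of 0.02 over 6 genes. Clta, a clathrin light chain, differed by 0.15 ± 0.12 and Cltc, the heavy chain, by 0.04 ± 0.10. Dnajc6, the auxilin that helps to strip the coat in neurons, differed by 0.19 ± 0.14 and Hspa8, the chaperone that does the stripping, by -0.13 ± 0.13. Among 10 genes that recruit AP-1 to membranes the median was -0.01. Arfgef2, an exchange factor that activates Arf1 at the Golgi, read 7.83, 7.55 and 7.84 in Prox1-OE, against 7.33, 7.41 and 7.72 in control, a difference of 0.25 ± 0.13 (SE, limma adjusted p = 0.767). Its paralog Arfgef1 differed by 0.08 ± 0.10, Arfrp1 by -0.10 ± 0.13 and Arf3 by -0.08 ± 0.10.

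Of the accessory and GGA proteins 16 were measured, with a median of -0.03. Synrg, which encodes the gamma-synergin bound by the gamma chain, read 6.85, 7.16 and 7.16 in Prox1-OE, against 7.22, 7.18 and 7.19 in control, a difference of -0.14 ± 0.11 (SE, limma adjusted p = 0.827). Its groups did not overlap, by a margin that was narrow for all but Prox1-OE replicate 1. Tbc1d5 differed by -0.23 ± 0.16, Epn1 by -0.14 ± 0.11 and Heatr5a by 0.11 ± 0.11. Of the cargo genes 13 were measured, with a median of 0.02. Sort1, the sorting receptor sortilin, read 7.68, 7.84 and 8.10 in Prox1-OE, against 8.15, 8.11 and 8.09 in control, a difference of -0.24 ± 0.12 (SE, limma adjusted p = 0.763). M6pr, the cation-dependent mannose 6-phosphate receptor, read 9.45, 9.28 and 9.20 in Prox1-OE, against 9.12, 9.17 and 9.11 in control. Its groups did not overlap, and the difference was 0.18 ± 0.09 (SE, limma adjusted p = 0.773). Tgoln1, a protein that cycles through the trans-Golgi network, differed by 0.23 ± 0.13 and the SNARE gene Stx6 by 0.13 ± 0.10.

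**Figure D3:**
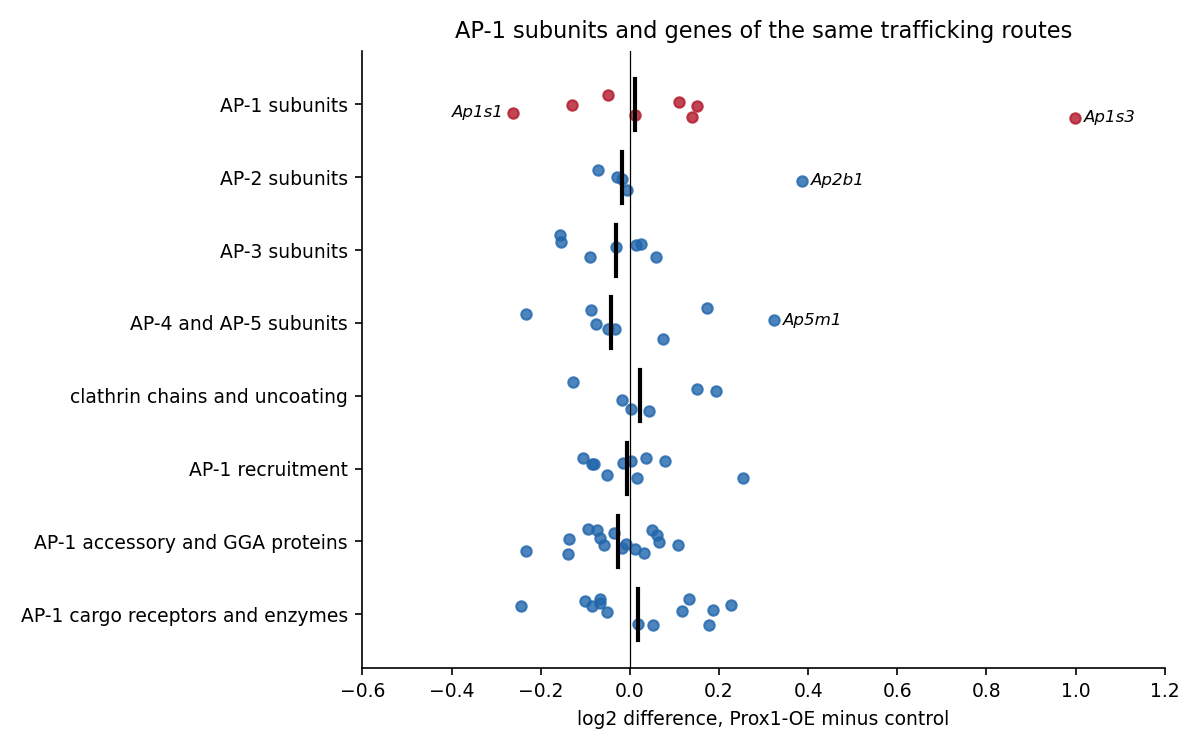
Log2 difference, Prox1-OE minus control, of the 8 AP-1 genes (red) and of 65 genes of the same trafficking routes (blue) by list, each point a gene and each black bar the median of its list, with Ap1s3 left out of the AP-1 median. Ap1s3 stands at 0.998, and the points next to it are Ap2b1 at 0.39 and Ap5m1 at 0.32.

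The position of Ap1s3 in the genome was a property that its choice did not use. Of the 3 nearest measured protein-coding genes on each side in the RefSeq order, 0 of 6 passed limma's test, where 0.0275% of all genes did, and 1 had an unadjusted p under 0.05, where 6.65% of all genes did. That one was Wdfy1, the gene next to Ap1s3, which encodes an endosomal protein with a FYVE domain. It read 6.90, 6.46 and 6.81 in Prox1-OE, against 6.43, 5.85 and 5.84 in control. The groups were separated by a narrow margin, since control replicate 1 lay just under Prox1-OE replicate 2, and the difference was 0.68 ± 0.18 (SE, limma adjusted p = 0.690). Of its 5 probe sets, the next in brightness differed by 0.57 ± 0.20. The one after that, 1424749_at, differed by 0.49 ± 0.10 and read 4.88, 4.85 and 5.02 in Prox1-OE, against 4.42, 4.55 and 4.30 in control. The dimmest probe sets differed by 0.02 and -0.25. 

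On the other side of Ap1s3 lies Scg2, which encodes the secretogranin II of endocrine granules. It read 9.35, 8.94 and 8.98 in Prox1-OE, against 9.71, 9.27 and 8.70 in control, a difference of -0.14 ± 0.24 (SE, limma adjusted p = 0.934). Kcne4, a potassium channel subunit, differed by -0.07 ± 0.11 and Acsl3, an acyl-CoA synthetase, by 0.09 ± 0.19. Mrpl44, of the mitochondrial ribosome, differed by -0.03 ± 0.12 and Fam124b by -0.08 ± 0.09. A wider window of 10 measured neighbours on each side was looked at after these values were seen. In it 0 of 20 genes passed, 3 had an unadjusted p under 0.05 (6.65% over all genes), and the median difference was -0.02. Besides Wdfy1 these were Dock10 and Sgpp2. Dock10 read 6.97, 5.04 and 6.06 in Prox1-OE and 5.20, 5.07 and 4.60 in control. Its groups overlapped, and its difference of 1.06 ± 0.42 (SE, limma adjusted p = 0.730) was the largest of the window. Sgpp2 differed by -0.61 ± 0.16 (SE, limma adjusted p = 0.690). Around the other 7 subunit genes, 0 of 42 neighbours passed (0.0275% over all genes) and 1 had an unadjusted p under 0.05 (6.65% over all genes), with differences from -0.31 to 0.30.

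**Figure D4:**
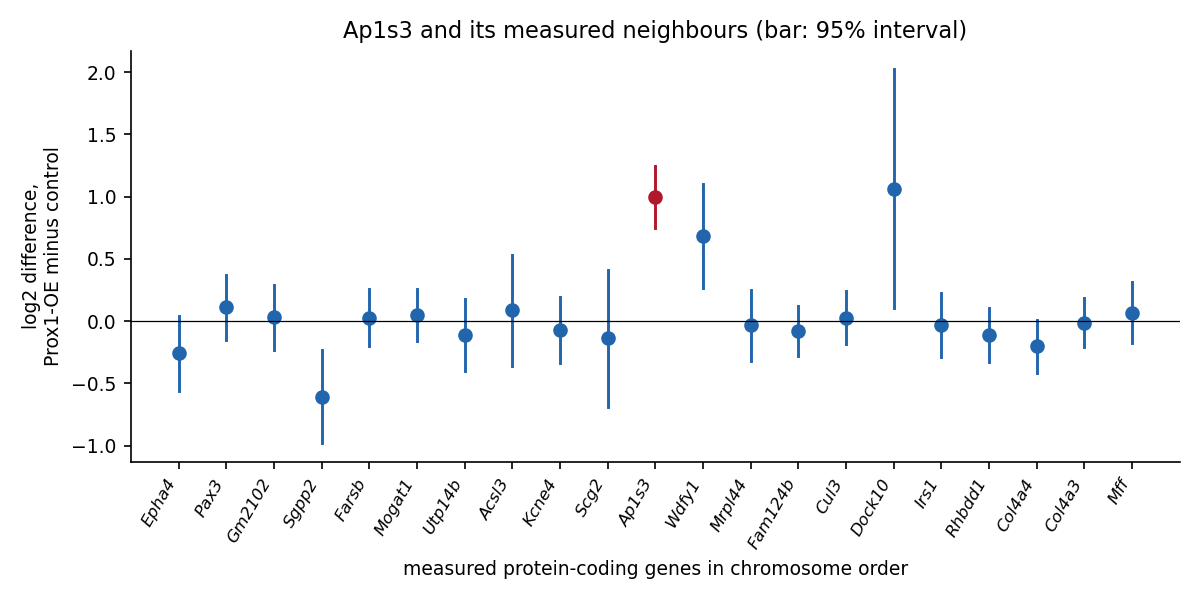
Log2 difference, Prox1-OE minus control, of Ap1s3 (red) and of 10 measured protein-coding neighbours on each side (blue) in chromosome order, with 95% intervals from limma. Ap1s3 at 0.998 and Wdfy1 at 0.68 stand side by side, and the other 5 of the 6 nearest neighbours lie between -0.14 and 0.09. Dock10 is the highest point, at 1.06, and has the widest interval (0.11 to 2.02).

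The genes whose profile over the 6 arrays was most like that of Ap1s3 were found by the root mean square distance between profiles centred on each gene's own mean. Fam241b was nearest at a distance of 0.19, where the median of 18192 genes was 0.53. It read 7.60, 7.44 and 7.62 in Prox1-OE, against 6.44, 6.40 and 6.21 in control. Gbp2, a guanylate-binding protein induced by interferon, and Lat, an adaptor of T cell receptor signalling, followed at 0.22 each. Iigp1, an immunity-related GTPase, lay at 0.22 and Hsp90aa1, the inducible HSP90 chaperone, at 0.23. This likeness rests on 6 arrays and mostly on the difference between the genotypes. Of the other AP-1 genes Ap1g2 was the nearest, at a distance of 0.43 and rank 1222, well beyond the profiles named above. Ap1s1 was the farthest, at a distance of 0.64 and rank 16799.

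Markers of other cell types were also compared between the groups, and their values stand beside those of Ap1s3. By limma at an adjusted p of 0.05, 0 markers of the macrophage, B cell, T and NK cell, endothelium, beta cell, duct and fibroblast lists passed, where 0.0275% of all genes did. The counts of positive markers stand beside 46.2% positive over all genes. Macrophage markers were higher on the Prox1-OE arrays, with 9 of 10 positive, 10 of 10 above the median of the table and mean levels of 7.08 to 7.75 in Prox1-OE and 6.52 to 6.85 in control. Over the control mean they stood at 1.07, 0.40 and 0.41 on Prox1-OE replicates 1, 2 and 3, and at 0.17, -0.01 and -0.16 on the control arrays. B cell markers stood at 1.48, 0.23 and 0.47 on Prox1-OE replicates 1, 2 and 3, and no higher than 0.10 on any control array. Their mean levels were 4.46 to 5.71 in Prox1-OE and 4.16 to 4.33 in control, with 5 of 7 positive and Cd79a, Cd79b, Blk and Cr2 below the median of the table. T and NK cell markers did not rise on every array. They stood at 0.55, -0.15 and 0.15 on Prox1-OE replicates 1, 2 and 3, with 3 of 6 positive and Cd3g, Cd3d and Nkg7 below the median of the table. Endothelium markers stood at 0.26, -0.10 and -0.006 on these arrays, with 6 of 8 positive and Vwf below the median of the table. Ap1s3 over its control mean was 0.99, 0.94 and 1.05 on Prox1-OE replicates 1, 2 and 3, and these are values that chose the complex. The part of macrophage, B cell, T and NK cell and endothelium content in the level of Ap1s3 was not tested. The Ap1s2 probe set 1452657_at was highest on Prox1-OE replicate 1, and the part of these markers in its value was not tested.

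Beta cell markers were lower, with 0 of 8 positive and mean levels of 6.84 to 7.13 in Prox1-OE and 7.39 to 7.92 in control, and Ucn3 below the median of the table. Over the control mean they stood at -0.52, -0.68 and -0.81 on the Prox1-OE arrays, and at 0.27, -0.01 and -0.25 on the control arrays. Ap1s3 stood at -0.20, 0.09 and 0.11 on control replicates 1, 2 and 3. Markers of other endocrine cells had overlapping mean levels, 8.11 to 8.42 in Prox1-OE and 8.01 to 8.54 in control. Of these, 5 of 9 were positive, 1 passed limma's test (0.0275% of all genes) and Ghrl lay below the median of the table. Duct markers had mean levels of 5.93 to 6.22 in Prox1-OE and 6.12 to 6.28 in control, with 3 of 6 positive and Cftr and Tspan8 below the median of the table. Fibroblast markers had mean levels of 9.47 to 9.96 in Prox1-OE and 9.25 to 9.58 in control, with 8 of 8 positive. The part of beta cell, other endocrine, duct and fibroblast content in the level of Ap1s3 was not tested.

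**Figure D5:**
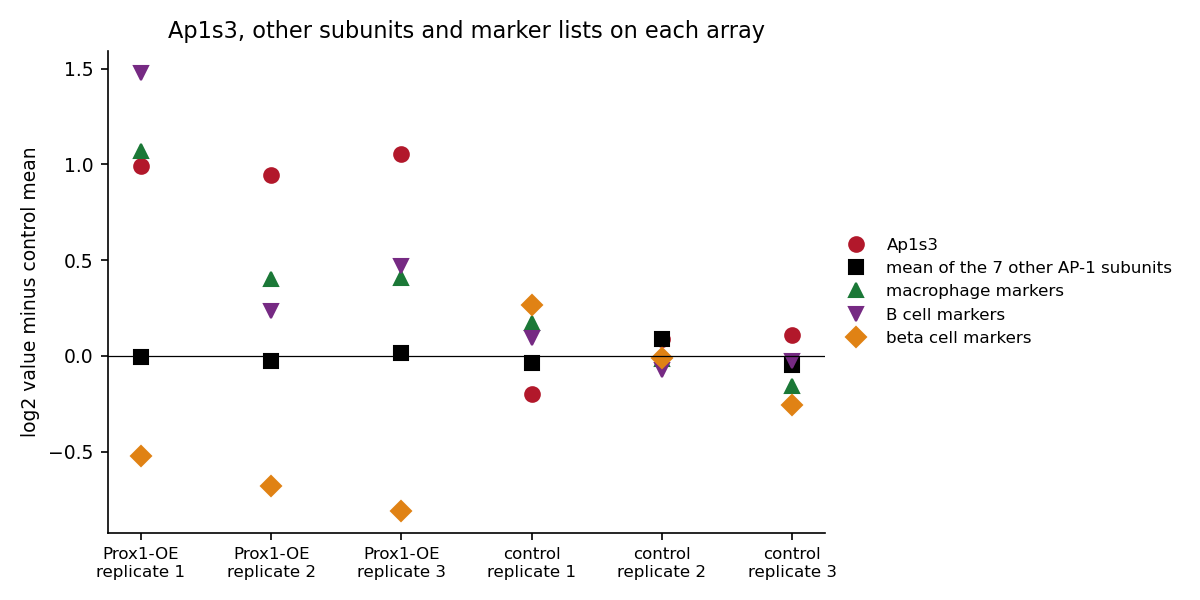
Log2 value minus the control mean on each array for Ap1s3, the mean of the 7 other AP-1 subunits and the mean of the macrophage, B cell and beta cell marker lists. Ap1s3 lies between 0.94 and 1.05 on all Prox1-OE arrays. The mean of the 7 other subunits stays within 0.09 of 0 on every array. Single subunits, which are not drawn, go further, with Ap1s1 at -0.35 on Prox1-OE replicate 1 and Ap1m1 at 0.28 on Prox1-OE replicate 3. The macrophage and B cell markers peak at 1.07 and 1.48 on Prox1-OE replicate 1.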

How the data were processed

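Gene expression was measured in whole pancreas at postnatal day 15 with Affymetrix 3' arrays, 1 per sample, from 100 ng of total RNA per the labels' protocols. The deposited values were log2 probe set summaries. Per the submitters' processing notes the tools were RMA, which quantile-normalizes arrays, and Partek 6.5; no settings are given. After such scaling a change of total RNA is invisible, and differences of dim probe sets are compressed.

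Of 45101 probe sets, 64 were Affymetrix controls, 34945 had 1 gene symbol in GEO's platform annotation, 932 had several (0 of these with a member among them) and 9160 had none. Each of 18193 genes was represented by its brightest probe set. No source used here names the array's build. RefSeq (GRCm38.p6) gave the order of genes and the promoter sequences.

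Prox1-OE (n = 3) and control (n = 3) were compared with limma 3.58.1 (lmFit, eBayes) under R 4.3.3, two-sided, with Benjamini-Hochberg adjustment over all genes, or over all 45037 probe sets for single probe sets, at 0.05. The fit was tested on simulated data. The members, lists and tests were chosen with earlier results of these data known. The genes named were all members, up to 4 per partner list with the smallest p, the 3 nearest measured neighbours of Ap1s3 on each side and the 5 nearest profiles. Dock10 and Sgpp2, the wider window and the alternatives run for Wdfy1 were chosen after their values were seen. Other settings were averaging the probe sets of each gene, preference for specific probe sets, renormalization, median centring, array weights, trended and robust eBayes, a filter on dim genes, a replicate block, a threshold of 0.1, every probe set on its own, and leaving out each array.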

Additional observations from a re-analysis of the deposited data

How the results depend on the processing

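Over 16 alternatives, 0 of the 7 other AP-1 subunits and 0 of the trafficking genes were called by limma, also at an adjusted p of 0.1 and with all probe sets tested singly. The difference of Ap1s3 stayed between 0.90 and 1.05 when single arrays were left out and between 0.987 and 1.02 under the other 8 settings. The median difference of the other 7 subunits lies so close to 0 that its sign turned, to -0.0153 with quantile normalization again and -0.0174 with array weights, and it ran from -0.0660 (without control replicate 3) to 0.0630 (without control replicate 1) without single arrays. That median is the value of Ap1b1, in the fit reported and under both settings, and Ap1b1 ran from -0.0789 to 0.0630 without single arrays. Ap1s2 turned to 0.0443 with the mean of all its probe sets, which differ among themselves. No subunit among the 7 had an adjusted p below 0.619 under any alternative. Wdfy1 differed by 0.58 to 0.88 without single arrays and by 0.30 with the mean of its probe sets, and its adjusted p ran from 0.418 to 0.965. With the replicate number as a block, Ap1s1 had an adjusted p of 0.619 at the same difference of -0.26, and 0 subunits were called. Same-numbered arrays of the genotypes had correlations of deviations of 0.04, 0.14 and 0.11, and 6 of 6 arrays correlated best with their own number, a hint from the data, not the design, so the numbers were not taken as pairs. The 3 arrays per group limit every interval.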
